A study of Mus musculus with 40 samples.

Results

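Interferon response genes are switched on when a cell senses viral or misplaced nucleic acid, or when interferon from another cell binds its receptor. The 36 genes described here were chosen by name from the 20593 genes of the deposited table: 4 sensors of nucleic acid, 4 transcription factors, 15 antiviral effectors, the ubiquitin-like modifier Isg15 with the protease Usp18 that removes it, 2 guanylate-binding GTPases, 3 genes of antigen processing, 1 chemokine and 5 other induced genes. Type I interferons signal through the kinases Jak1 and Tyk2 to a complex that holds Stat2 and Irf9, which binds a short element in the promoters of its targets. Irf7 is itself induced and amplifies the response, and Usp18 dampens the receptor. Cells also keep these genes at a low tonic level without infection, and the liver before birth holds hepatocytes, macrophages and blood-forming cells that can all express these genes.

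Messenger RNA was sequenced from livers of C57BL/6 fetuses of both sexes at gestational day 18.5. The dams ate 1 of 4 diets for 13 weeks before breeding and through pregnancy: WDF (45% of calories from fat, 10 mg/kg folic acid), WD (45% fat, 2 mg/kg), CDF (10% fat, 10 mg/kg) or CD (10% fat, 2 mg/kg). The 45% fat diet serves as a model of gestational diabetes. Each diet and sex had 5 libraries, each from 1 fetus, 40 in all. The labels do not name the dam or litter, so the fetuses of a group may be littermates, and p-values measure only the spread between these fetuses.

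Of the 40 libraries, 2 were set aside: CDF female 5 and CD female 4 held 14784 and 21105 normalized counts over 6 hepatocyte genes, against 2093930 to 3154670 in the other 38, and 97809 and 150756 over 7 lung epithelium genes. CDF female 4 and CD female 5 were kept although their lung sums were 28463 and 38892, against a median of 33.3 over the 38 libraries. Lung sums were also raised in WDF male 2 (8303), CD male 5 (5559), WD female 4 (2768) and CDF female 2 (2073). WDF male 2 and CD male 5 were the highest of their groups in 23 and 18 of the 36 genes, against 27.1% and 15.8% of all genes. WD female 4 was highest in 10, against 16.9%, and CDF female 4 in 19, against 40.4%. CDF female 2 was highest in only 2, against 15.5%. CD female 5, which had the largest lung sum of the 38, was highest in 3. It was lowest in 23, against 35.8% of all genes. The part of the lung markers in these counts was not tested. The 38 libraries summed to 15.0 to 27.8 in units of 1000000 normalized counts. All 36 genes passed the filter of at least 10 normalized counts in at least 5 libraries, as did 15377 genes in all. In the 2 libraries set aside Rsad2 stood at 317 normalized counts in CDF female 5 and 276 in CD female 4, below the lowest of the 38 livers at 1933. The 36 genes did not all go this way there. Ifi44 stood at 236 in CD female 4, above the highest of the 38 livers at 141, and at 100 in CDF female 5. Psmb8 stood at 361 in CDF female 5 and 256 in CD female 4, against a median of 277 in the 38. In bulk tissue, fewer cells of a type and less RNA per cell cannot be told apart.

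The promoters of these genes were searched for 2 elements of interferon signalling. The genes were chosen by name as interferon response genes, so the shares below do not come from the values in the livers. RefSeq promoters on GRCm38.p6, from 250 bases before to 50 after the annotated start, were at hand for 27 of the 36 genes. The core of the interferon-stimulated response element, GAAANNGAAA on either strand, lay in 15 of them (55.6%), against 3.99% of 27025 genes with a promoter. The gamma activated sequence, TTCNNNGAA, lay in 7 of 27 (25.9%) against 9.55%, and 3 genes held both motifs, which overlapped in 2. Of 34 further induced genes outside the set, 26 had a promoter and 12 of these held the response element (46.2%). Mx1, Dhx58, Oas2, Mx2, Rtp4, Zbp1, Parp14, Ifi27 and Usp18 are named only. The windows below belong to 6 genes taken as examples, each with a match upstream of the start. Other genes named in the results, such as Oas1a and Gbp2, also had an upstream match. They read 5′ to 3′ on the strand of the gene, and capitals mark the response element core or, as TTTCNNTTTC, its reverse complement.
Isg15, chr4:156200855-156200916, minus strand: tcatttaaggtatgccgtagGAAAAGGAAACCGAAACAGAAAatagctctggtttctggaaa
Rsad2, chr12:26456543-26456592, minus strand: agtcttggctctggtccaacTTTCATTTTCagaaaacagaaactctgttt
Ifit1, chr19:34640765-34640833, plus strand: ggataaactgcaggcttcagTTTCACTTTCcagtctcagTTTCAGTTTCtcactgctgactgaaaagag
Oas3, chr5:120777705-120777754, minus strand: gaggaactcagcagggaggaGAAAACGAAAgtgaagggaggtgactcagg
Bst2, chr8:71537567-71537622, minus strand: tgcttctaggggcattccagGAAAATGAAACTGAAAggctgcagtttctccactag
Cxcl10, chr5:92349073-92349122, minus strand: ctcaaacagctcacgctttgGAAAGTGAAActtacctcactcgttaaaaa
Isg15 carried 3 overlapping copies, Bst2 2 overlapping copies and Ifit1 2 separate ones. Rsad2, Oas3 and Cxcl10 had 1 each, and the copy of Cxcl10 lay farthest upstream of the 6.

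**Figure D1:**
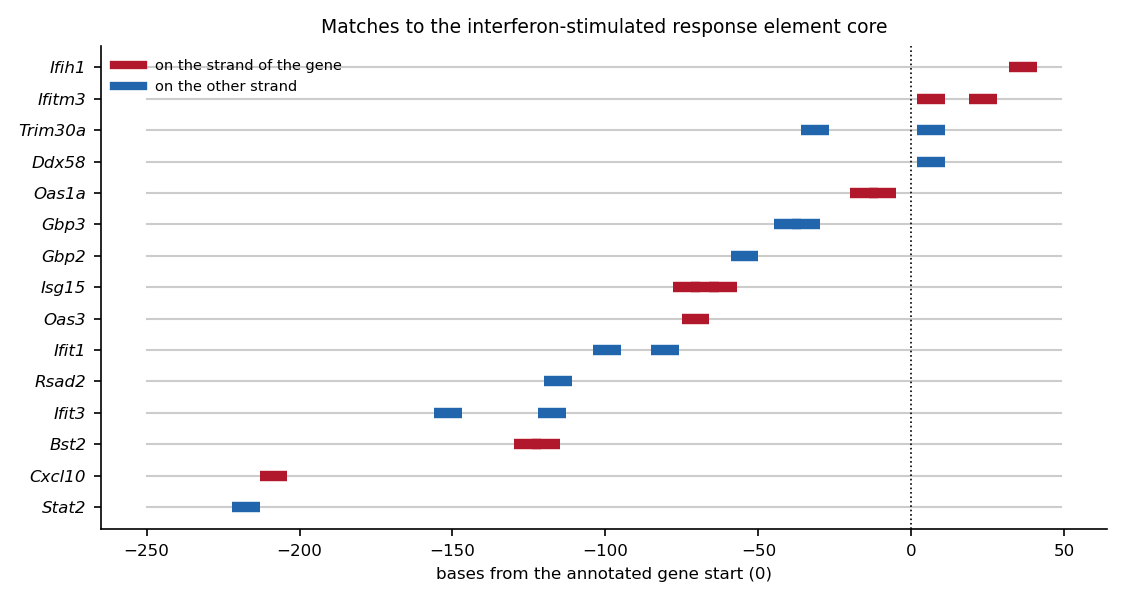
Matches to the response element core in the promoters of 15 genes, placed by their distance in bases from the annotated start (0); grey lines mark the 300 bases searched and colours the strand. In 13 of the 15 genes a match starts within 150 bases of the start.

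Levels were compared between genes as median normalized count per kilobase of merged exon over the 38 livers. Isg15 was the highest of the 36 at 2637 per kb, above 98.3% of tested genes. Ifitm3, a membrane protein that blocks virus entry, followed at 2107 per kb. Rsad2 (viperin), an enzyme that makes a chain-terminating nucleotide, stood at 1348 per kb. Bst2 (tetherin), which holds budding virus at the cell surface, stood at 899 per kb, Ifi35 at 395 and Ifi27 at 284. At the low end were Mx1 at 7.75 per kb, Ifi44 at 10.3 and Mx2 at 11.2; Mx1 and Mx2 are dynamin-like antiviral GTPases, and many laboratory mouse strains carry defective copies of both. In all, 21 of the 36 stood above the median tested gene and 4 were among the highest 10%.

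By role, the range over the 38 livers is given in normalized counts. Among the sensors, Ddx58 (RIG-I) and Ifih1 (MDA5), which detect viral RNA in the cytoplasm, lay between 129 and 702 and between 121 and 781, with medians of 436 and 346. Dhx58 (LGP2), which tunes both, lay between 84.8 and 237, and Zbp1, which can trigger cell death, between 13.8 and 114. Of the transcription factors, Irf7 covered 316 to 1428, Stat2 260 to 817, Irf9 470 to 1096 and Irf1 287 to 550. Irf1 was the narrowest of the 4 and Irf7 the widest.

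Among the effectors, the Ifit genes had medians of 267 (Ifit1), 180 (Ifit2) and 298 (Ifit3), and the 3 lie together on chromosome 19 within 99.3 kb. The synthetases of the RNase L activator had medians of 181 (Oas1a), 96.7 (Oas2) and 226 (Oas3), and the related Oasl1 and Oasl2 had 63.6 and 232. Trim30a and Xaf1 had medians of 266 and 116. The GTPases Gbp2 and Gbp3, which attack the vacuoles of pathogens, had 129 and 103. In antigen processing, the immunoproteasome subunits Psmb8 and Psmb9 had medians of 277 and 156 and the peptide transporter Tap1 had 291; the 3 genes lie within 19.5 kb on chromosome 17. Cxcl10, which draws activated T cells, had a median of 116. Of the remaining genes, Rtp4 had 254 and Parp14 had 342.

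Upstream of these genes, the receptors were present in every liver. Ifnar1 and Ifnar2, the chains of the type I receptor, had medians of 596 and 922 normalized counts, and the kinase Jak1 had 1450. Of 10 interferon ligand genes looked for, only Ifng had a row in the table, at 0 to 4.15 normalized counts; the others were not analysed here. Among 6 plasmacytoid dendritic cell markers, Siglech reached at most 13.8 normalized counts in the 38 livers and Pacsin1 16.2, while Ccr9 ranged from 0 to 65.3, Cox6a2 from 0 to 311, Spib from 75.2 to 291 and Tcf4 from 262 to 1051. Their sum lay between 344 and 1221.

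Pooled over groups, the genes varied more between fetuses than most genes did. Their median SD of log2(value + 1) within groups was 0.53, against 0.38 over all tested genes, and 31 of 36 lay above that. Oas3, a synthetase of the RNase L activator, varied most at 0.81, followed by Ifi44 at 0.80 and Isg15 at 0.75. The nucleic acid sensor Zbp1 came next at 0.74, then Ifit2 at 0.73 and Ifit1 at 0.71. The Ifit proteins bind foreign RNA. Irf1 varied least at 0.22. By role, the median SD was 0.56 for the antiviral effectors, 0.52 for the sensors, 0.37 for antigen processing and 0.33 for the transcription factors. The groups differed in this: the median SD was 0.78 in CDF females, 0.62 in WD males and 0.58 in WDF females, against 0.47, 0.35 and 0.34 over all genes in the same groups. In CD females it was 0.37 against 0.27 over all genes, in WD females 0.35 against 0.32 and in WDF males 0.32 against 0.27. In CDF males it was 0.31 against 0.30 and in CD males 0.35 against 0.37, with 20 and 17 of 36 genes above the median gene.

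**Figure D2:**
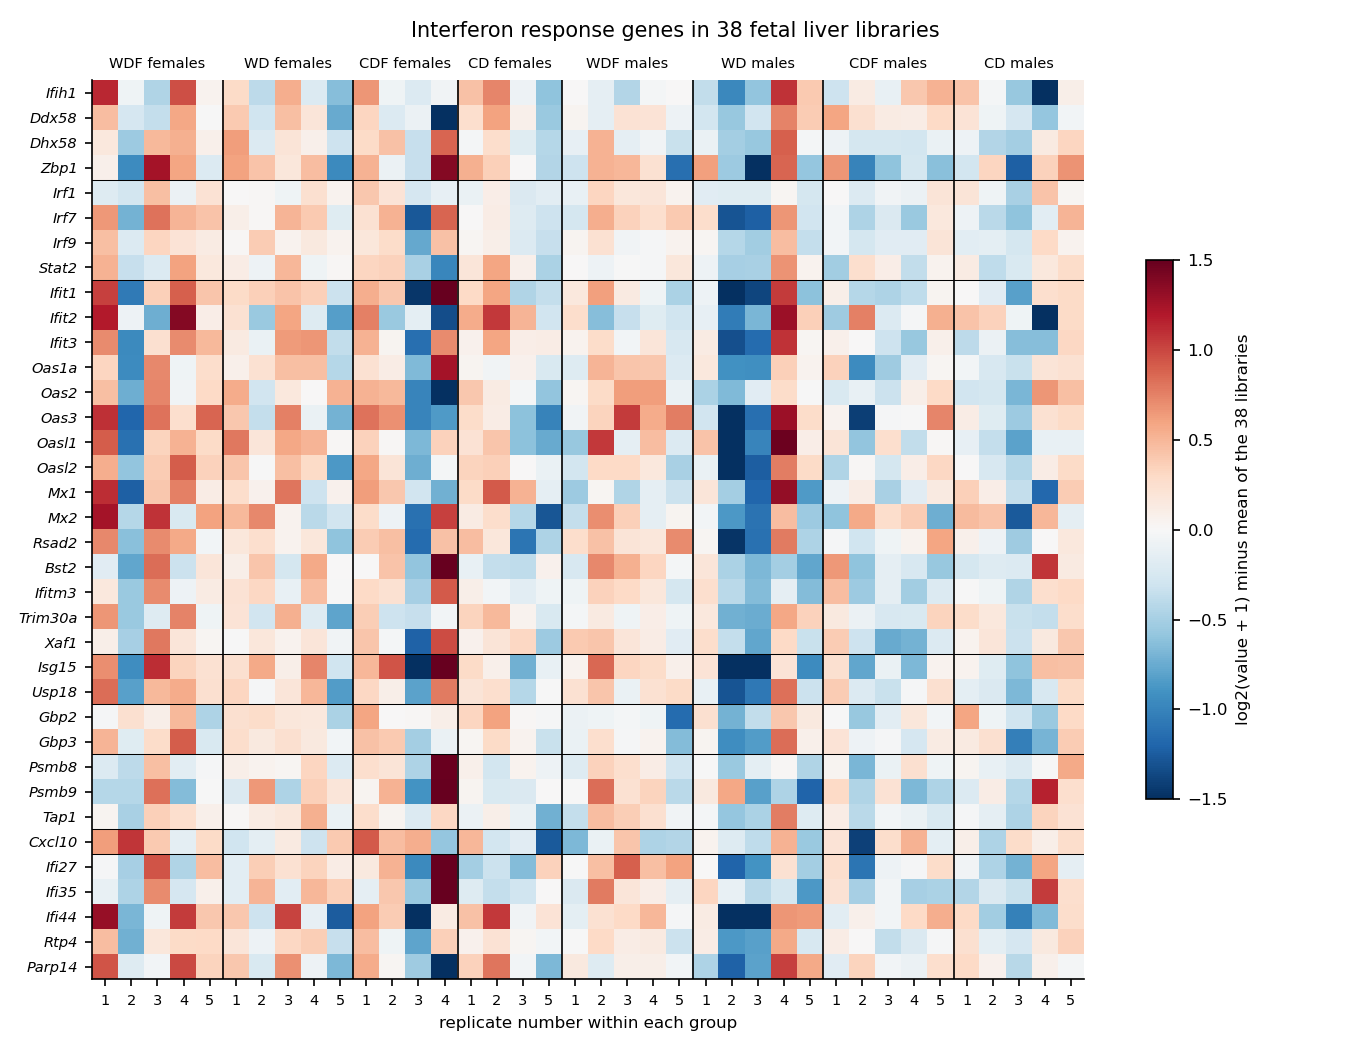
Each cell is log2(value + 1) of 1 gene in 1 of 38 livers minus the mean of that gene over all 38; columns are fetuses by group and rows are genes in order of role. WD males 2 and 3, WDF female 2 and CDF female 3 are low over most rows, and WD male 4 is high.

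These differences ran through many genes of a fetus at once. WD male 4 was the highest of the 5 WD males in 32 of 36 genes, against 18.9% of all tested genes, with a median deviation of 0.87 log2 units above the group mean. WD males 2 and 3 were each above the group mean in only 2 of 36 genes, with median deviations of -0.63 and -0.61. The effector Rsad2 shows the span: WD males 1 to 5 had 5487, 1933, 2471, 9193 and 3888 normalized counts. Ifit1 had 233, 77.7, 94.3, 512 and 161 in the same order. In both genes male 4 was highest and males 2 and 3 were the lowest pair.

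The same was seen in females, downward. WDF female 2 was lowest of 5 in 29 of 36 genes, against 16.2% of all genes, with a median deviation of -0.68. CDF female 3 was lowest of 4 in 28, against 22.2%, with -0.76. For Isg15 the CDF females 1 to 4 had 2539, 3462, 482 and 6264 normalized counts, and for Usp18 they had 506, 434, 234 and 702. Among the other groups, CD male 3 was lowest in 25 genes against 13.4%, and WD female 5 in 24 against 24.2%. The chemokine Cxcl10 ran the other way in WDF female 2, which at 234 normalized counts was the highest of all 38 livers.

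Genes of the pathway outside the set were read for the same fetuses. Of 34 further induced genes, WD male 4 was highest in 27, WD male 2 lowest in 23, WDF female 2 lowest in 22 and WD female 5 lowest in 25, while CDF female 3 was lowest in 16. WD male 4 was highest in 0 of the 6 receptor genes, whose median deviation there was 0.00. The summed level of 12 macrophage markers was 14451 normalized counts in WD male 4, against 14738 and 13944 in WD males 2 and 3. Neutrophil markers summed to 32264 in WD male 4, the lowest of the 38 livers, against 44500 and 49608 in males 2 and 3. Erythroid markers summed to 1043340 in WD male 4, against 1797360 and 1282900 in males 2 and 3. Short minus long genes stood at -0.48 log2 units in WD male 4, against 0.33 and -0.11 in males 2 and 3, on the length measure described next for CDF female 4. The part of these values in the pattern was not tested.

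**Figure D3:**
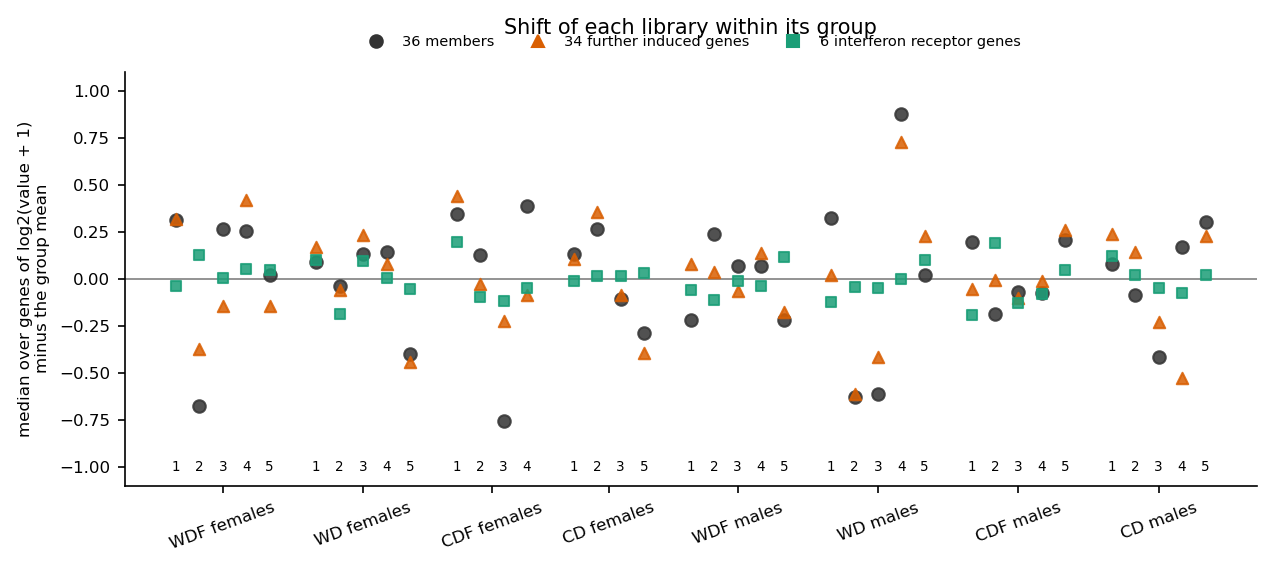
Each point is the median over a list of genes of log2(value + 1) minus the group mean, for each of 38 livers, with numbers giving the replicate. The 36 members and the 34 further induced genes sit together at 0.87 and 0.73 in WD male 4, while the 6 receptor genes sit at 0.00 there.

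CDF female 4 stood apart in another way. Its genes with short exon length (at most 2.41 kb) were raised over long genes (at least 6.45 kb) by 1.31 log2 units, against -0.63 to 0.47 in the other livers. Among the 36, it was the highest CDF female in 14 of the 18 shorter genes and 5 of the 18 longer ones. Its neutrophil and erythroid marker sums, 129052 and 3834080 normalized counts, were the highest of the 38 livers. The part of these values in its high Isg15, Ifi27 and Bst2 was not tested.

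Folic acid on the western diet gave the widest shift in males. In WDF males against WD males, 31 of 36 genes were higher, against 51.4% of all tested genes. The median log2 difference was 0.30, against 0.01 over all tested genes. However, 0 of 36 passed an adjusted p of 0.05 in limma, as did 0% of all 15377 genes in either direction. At an unadjusted p under 0.05, 4 members were higher, against 4.77% of all genes. Groups did not separate fully for any member, against 1.34% of genes with WDF males wholly above. Markers of other cells differed between the same groups: all 6 megakaryocyte markers were higher in WDF males with a median of 0.58 and sums of 4819 to 6628 normalized counts, against 3486 to 4515 in WD males. All 9 neutrophil markers were higher with a median of 0.26 and sums of 44599 to 62847 in WDF males, against 32264 to 62222 in WD males. All 7 lung epithelium markers were higher with a median of 2.04 and sums of 20.6 to 8303 in WDF males, against 15.8 to 46.7 in WD males. The sum of 8303 was that of WDF male 2, and the group medians were 53.2 and 21.5. Of the other lists, 6 of 6 sinusoidal endothelium, 4 of 6 hepatocyte, 3 of 4 natural killer and T cell and 3 of 4 plasmacytoid dendritic cell markers were higher. So were 6 of 12 macrophage, 4 of 8 B cell precursor, 1 of 4 mesothelium and 1 of 7 erythroid markers. None of these markers passed the adjusted threshold, and their part in the result was not tested.

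Ifi27, a small membrane protein, came closest. WDF males 1 to 5 had 415, 569, 776, 568 and 635 normalized counts and WD males had 419, 180, 224, 486 and 292. The groups overlapped at the lowest WDF male and the highest 2 WD males, and the log2 difference was 0.95 ± 0.34 (SE, limma unadjusted p = 0.0076, adjusted p = 0.465). Isg15 had 1870, 3268, 2259, 2180 and 1898 in WDF males and 2074, 547, 501, 2087 and 936 in WD males. Only WD males 1 and 4 reached the WDF range, and the difference was 1.14 ± 0.45 (SE, limma adjusted p = 0.501). Rsad2 had 6452, 7295, 6112, 6028 and 8787 in WDF males against the WD values given above, and its difference of 0.80 ± 0.33 had a limma adjusted p of 0.514. WD male 4 lay above all WDF males there. Bst2 averaged 1093 ± 291 in WDF males and 666 ± 194 in WD males (SD, n = 5 each).

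The size of this shift depended on single WD males. The median of the 36 was 0.49 without WD male 4, 0.17 without WD male 2 and 0.20 without WD male 3. When libraries were weighted by their overall spread, 7 members passed (Irf7, Oas1a, Oas3, Bst2, Isg15, Ifi27 and Ifi44, all higher in WDF males), among 621 genes in all (2.15% of genes higher and 1.89% lower). In the sex difference of the folic acid effect on the western diet, the weighted fit called 2 members lower, Bst2 and Ifi27, against 1.84% of genes lower and 1.92% higher. That fit gave WD male 3, a low library, the highest weight of all 38, 3.26, and WD male 4 a weight of 0.644.

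**Figure D4:**
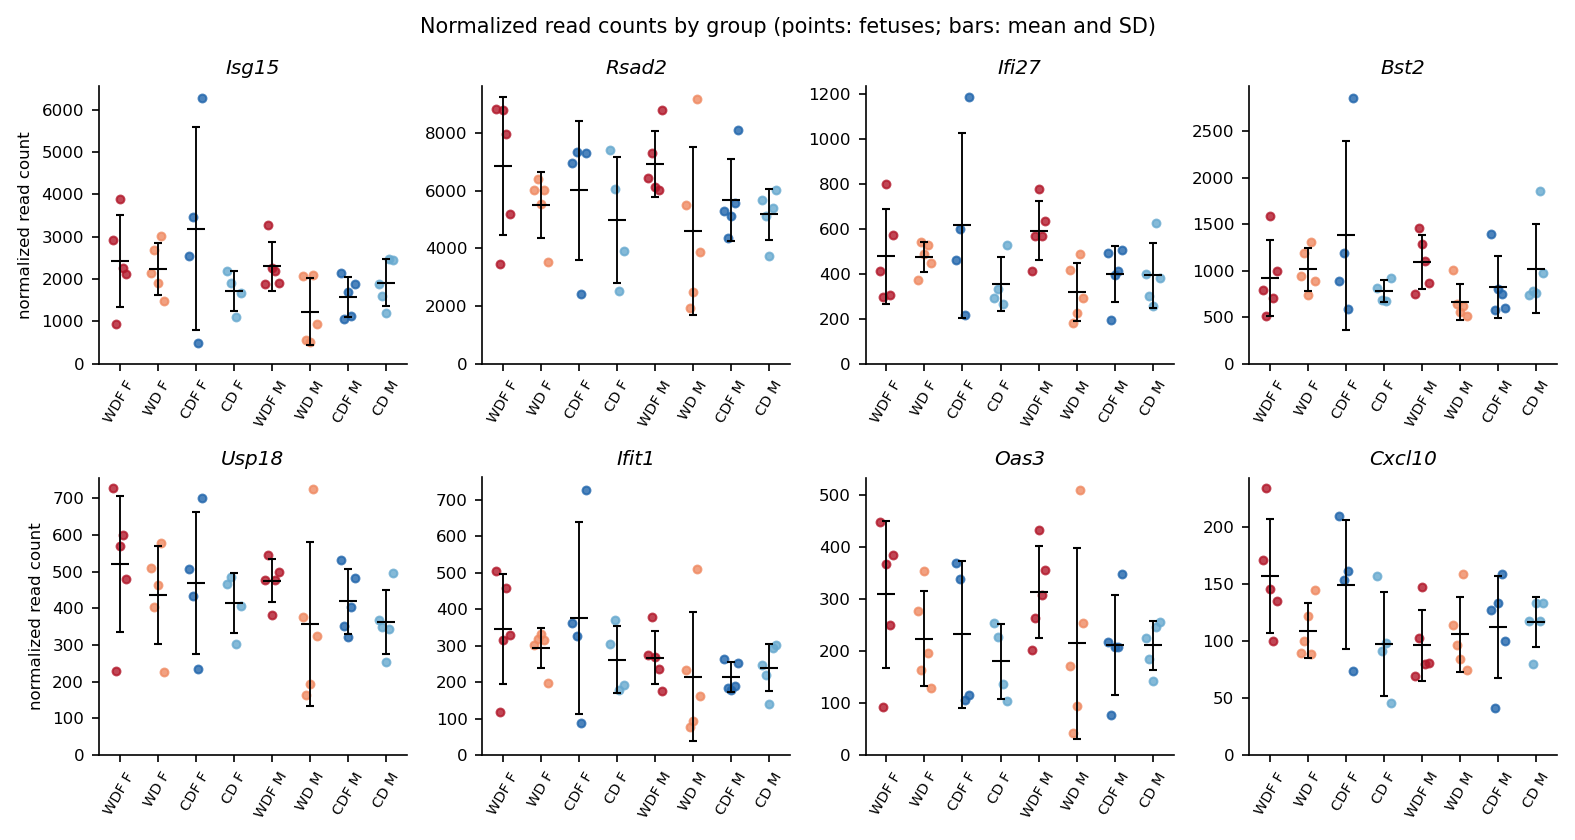
Normalized read counts of 8 genes by group, with 1 point per fetus and bars for the mean and SD (n = 5, or 4 in CDF and CD females). Rsad2 of WD males spans 1933 to 9193, wider than the 6028 to 8787 of WDF males.

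In the authors' deposited table of WDF against WD males, fitted with shrunken log2 changes, 203 genes passed an adjusted p of 0.05 (1.48%) and none of the 36 did. In the authors' deposited table Ifi27 was nearest, with a log2 change of 0.70 and an adjusted p of 0.0522, then Bst2 with 0.54 and 0.0774. In the authors' deposited tables for the other 3 folic acid comparisons, 0 of 36 genes passed, as did 0.0216% of all genes in CDF against CD females, 0.0437% in CDF against CD males and 0% in WDF against WD females.

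The other comparisons of 2 groups gave smaller medians, and 0 of 36 genes passed in any, as did 0% of all genes. In WDF females against WD females the median was 0.05, with Cxcl10 at 0.49 ± 0.32 (SE, limma adjusted p = 0.948). The next smallest p-values belonged to Ifit2 at 0.52 and Ifih1 at 0.41. The median was 0.23 without WDF female 2 and -0.02 without WDF female 4. CDF females against CD females gave 0.17, with Cxcl10 at 0.64 ± 0.35 (limma adjusted p = 0.507), but -0.02 without CDF female 4 and 0.42 without CDF female 3. Ifi35 at 0.58 and Psmb8 at 0.42 came next, and CDF female 4 was the highest of all 38 livers in both. Without it they were at 0.11 and 0.05, and Cxcl10 was at 0.32 without CD female 5. CDF males against CD males gave -0.06, led by the RNA sensor Ddx58 at 0.42 ± 0.28 (limma adjusted p = 0.908), then Xaf1 at -0.41 and Ifih1 at 0.45. Without CD male 4, Ifih1 was at 0.15.

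For the western diet, WDF against CDF gave medians of 0.18 in males and 0.15 in females. Xaf1 at 0.51 ± 0.28 (SE, limma adjusted p = 0.720), Ifi27 at 0.61 and Oas1a at 0.44 led in males. The male median was 0.12 without WDF male 2 and 0.24 without WDF male 5. Without CDF male 2, Ifi27 was at 0.37 and Oas1a at 0.27. The female median was -0.15 without CDF female 3 and 0.33 without WDF female 2. Parp14, an ADP-ribosyltransferase, was highest in that contrast at 0.93 ± 0.40 (SE, limma unadjusted p = 0.0249, adjusted p = 0.532): WDF females averaged 480 ± 180 normalized counts (SD, n = 5) and CDF females 291 ± 181 (SD, n = 4). Psmb8 at -0.43 and Ddx58 at 0.50 had the next smallest p-values there. Without CDF female 4, the liver with the length shift, these differences were 0.39 for Parp14, -0.06 for Psmb8 and 0.07 for Ddx58. WD against CD gave -0.20 in males, where 29 of 36 were lower and 7 higher, against 47.7% of all genes higher. Isg15 was lowest there at -0.85 ± 0.45 (SE, limma adjusted p = 0.760). In females WD against CD gave 0.16, where 26 were higher, against 47.8% of all genes. The peptide transporter Tap1 had the smallest p in females, at 0.36 ± 0.22 (limma adjusted p = 0.662). Bst2 at -0.56 and Ifitm3 at -0.32 followed Isg15 in males, and Oasl1 at 0.60 and Ifit2 at -0.61 followed Tap1 in females. The male median was -0.03 without WD male 2 and -0.37 without WD male 4, and Bst2 was at -0.32 without CD male 4. Without CD female 5, which held lung markers, the female median was 0.04 and Tap1 was at 0.18. Comparisons that share a group share its fetuses: WD males enter both the folic acid and the fat comparison.

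**Figure D5:**
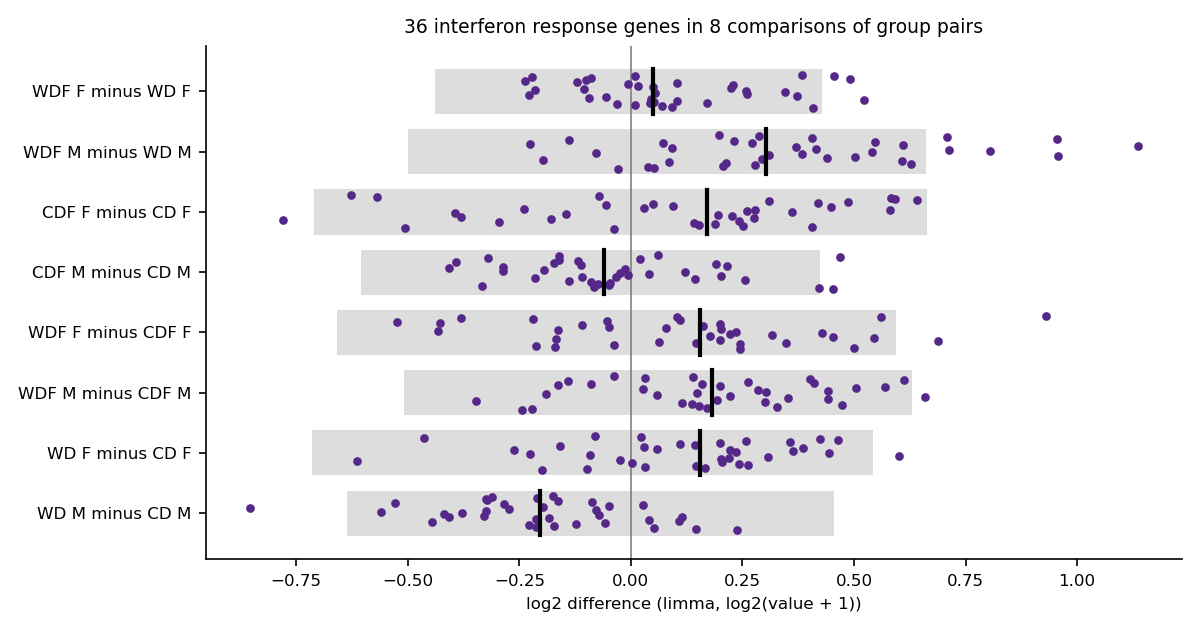
Log2 differences of the 36 genes (points) in 8 comparisons of group pairs, with the median as a black line and the 5th to 95th percentile of all 15377 tested genes as a grey bar. The points lie mostly right of 0 for WDF against WD males (median 0.30) and left of 0 for WD against CD males (-0.20).

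Averaged over the strata, 32 of 36 genes were higher with 10 than with 2 mg/kg folic acid, against 49.5% of all tested genes. The median was 0.10 (0.17 without CDF female 3 and 0.07 without WD male 3). Ifi27 led at 0.37 ± 0.17 and Rsad2 at 0.36 ± 0.17 (SE, limma unadjusted p = 0.0404 and 0.0438, adjusted p = 1 for both), then Usp18 at 0.29. Over the diets, 34 of 36 were higher in females than in males, against 51.8% of all tested genes. The median was 0.17 (0.14 without CDF female 4 and 0.24 without CDF female 3). The GTPase Gbp2 led at 0.25 ± 0.12 (SE, limma adjusted p = 0.999), then Mx1 at 0.39 and Ifit1 at 0.40. Of all genes, 0.026% were called higher and 0.0325% lower in females. As the 36 genes moved together within a fetus, these counts are not 36 separate results. The western diet gave a median of 0.04 over 4 strata, -0.01 without CDF female 3 and 0.10 without WDF female 2; 0 genes were called higher and 0.0455% lower, and the smallest p-values among the 36 were those of Oas2 at 0.23, Oasl1 at 0.28 and Tap1 at 0.12. None of the 36 passed in any of these 3 averages.

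Differences of effects were tested too. The folic acid effect was larger on the western than on the control diet in males by a median of 0.39, with Isg15 at 1.42 ± 0.63 and Bst2 at 1.00 ± 0.45 (SE, limma adjusted p = 0.387 for both), and by -0.01 in females. The male median was 0.24 without WD male 3 and 0.61 without WD male 4, and the female median was -0.33 without CDF female 3 and 0.19 without WDF female 2. The folic acid effect on the western diet, in females minus in males, had a median of -0.29, with Ifi27 at -1.04 ± 0.48 (SE, limma adjusted p = 0.580), and the median was -0.09 without WDF female 2 and -0.48 without WD male 4. The western diet effect at 2 mg/kg, in females minus in males, was positive for 28 of 36 genes, against 49.2% of all genes, with a median of 0.35. That median was 0.53 without WD male 4 and 0.25 without CD female 5. None of the 36 genes passed in these tests. In the lists of receptors, sensing adaptors, brakes on the response, further induced genes and antigen presentation, 0 genes passed in any of the 15 comparisons. In WDF against WD males, 19 of the 34 further induced genes were higher with a median of 0.03, 3 of 14 sensing adaptors and kinases with -0.11, 3 of 9 brakes with -0.01, 3 of 6 receptors with 0.06 and 9 of 10 antigen presentation genes with 0.36.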

How the data were processed

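Strand-specific poly(A) libraries were sequenced from both ends for 43 nt, per the labels' protocols. The submitters' processing notes name DESeq2 1.24, Salmon 1.3.0, STAR 2.7.3a and Trimmomatic 0.39, with mm10; the sources used here do not say which step each served. Gene values in the deposited table are a signal, read counts that the authors divided by size factors: recomputed median-ratio factors were equal in all 40 libraries. Only 27.4 to 55.0% of low values (under 30) were whole multiples of the smallest step (tolerance 0.1 step), so reads were not recovered. Library sums divided by these steps came to 10.5 to 22.3 in units of 1000000 in the 38 libraries. With so few whole multiples the steps are uncertain, so these values do not establish the depth. The authors also deposited 4 tables of folic acid comparisons with log2 fold changes, p-values and mean signal. That of control diet females matched means without CD female 4 and CDF female 5 (SD of the log2 ratio 0.0411, against 0.408 with all 10). The other tables compare groups that do not hold these libraries, and they matched means of all 10 (SD 0.0303 to 0.0395).

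The fit used log2(value + 1), which understates changes of low genes, with limma 3.58.1 under R 4.3.3: 1 mean per group, 38 libraries, mean-variance trend, robust moderation, and Benjamini-Hochberg adjustment over 15377 genes, with a threshold of 0.05. Coordinates and exon lengths came from GENCODE M21, in which 20563 of 20593 IDs were found. On simulated data for WDF against WD males (15225 genes), 34.3% of the 67 genes set at 1.5-fold were called. The shares were 67.2% of the 67 at 2-fold and 100% of the 66 at 4-fold, and 9 of 143 calls were false. The changed genes were drawn from the better expressed ones, with noise independent between genes. As the members varied more than most genes and moved together within a fetus, these rates need not hold for them. The members and all lists were chosen with earlier results of these data known. Named genes are those with the 3 smallest p in a comparison, the 6 most variable, and the 6 highest and 3 lowest per kb; other genes named as examples were chosen after their values were seen. The column named CDF_1 lacks a sex letter and was assigned to CDF female 1 as the remaining title. There were 0 unused columns. Some results on the pathway are not reported here.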

Additional observations from a re-analysis of the deposited data

Results flagged for a closer look

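In 288 sets of 1 gene and 1 group, 15 (5.21%) held a fetus set apart from the rest of its group by Dixon's test at the 95% level; chance flags about 1 in 20. Bst2 was set apart in 3 groups, upward: 1002 normalized counts in WD male 1, 1390 in CDF male 1 and 1858 in CD male 4. Gbp2 was low in WDF male 5 at 56.7 and in WD female 5 at 91.3, and high in CDF female 1 at 193. Dhx58, a regulator of RNA sensing, was high in WDF male 2 at 182 and in WD male 4 at 237. Isg15 was high in WDF male 2 at 3268. Ifih1 was high in CDF female 1 at 565, Stat2 in WD female 3 at 725, Ifit3 in CD female 2 at 428 and Psmb8 in CD male 5 at 413. Low values were those of Ifit1 in WD female 5 at 198 and of Rsad2 in CDF female 3 at 2418.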

How the results depend on the processing

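Of 444 recomputed counts of members called, 442 stayed at 0, under no or a stricter filter, pseudocounts of 0.5 and 5, upper-quartile and recomputed scaling, 40 or 36 libraries, the compared groups alone, a threshold of 0.1, and leaving out each library (lowest and highest count 0 in each comparison). With library weights, 7 members were called in WDF against WD males and 2 (Bst2 and Ifi27, with a smaller effect in females) in the sex difference of the folic acid effect on the western diet, among 621 and 579 genes of all 15377; the cause was not tested. With a replicate block, 0 members were called. Of 72 pairs of same-numbered libraries, 27 correlated over 0.1 and 24 below -0.1, from -0.54 to 0.46 with a median of 0.01. Pooled over all pairs, the median showed no pairing of the fetuses. A pairing or batch shared by some groups only cannot be told from such a median. Between WD and CDF females, replicates 1 to 4 correlated at 0.44, 0.07, 0.46 and 0.41. Between WDF and CDF females they stood at 0.23, -0.08, -0.49 and -0.35. Whether some groups share a batch was not tested. For CDF against CD females, the median was -0.13 with 36 libraries, against 0.17 with 38. The response element 1 base shorter lay in 16 of 27 promoters (59.3%), against 9.76% of all genes. On simulated data, 34.3% of 1.5-fold changes were called, so a change of that size can be missed.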
